A study of Mus musculus with 6 samples.

Results

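Interferons are secreted proteins that cells release on sensing viral nucleic acid. They bind receptor pairs on the same or neighbouring cells, the receptors activate JAK kinases and STAT factors, and STAT and IRF factors then switch on interferon-stimulated genes, among them antiviral effectors, guanylate-binding proteins (GBPs) and the MHC class I genes that show peptides to T cells. Neurons are known for low basal MHC class I and for inducing it when exposed to interferon. The 43 genes described here are members of this pathway, chosen by gene symbol. All 43 symbols were found among the 24391 gene rows of the count tables.

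The levels were measured by RNA sequencing in GT1-7 cells, a clonal mouse hypothalamic line made by targeted expression of the SV40 T antigen under GnRH gene sequences and labelled as resembling GnRH neurons of wild type genotype. All cultures were serum-starved for 12 h. The 3 control cultures then received vehicle (another label calls them untreated) and the 3 AVP cultures received arginine vasopressin, a hypothalamic peptide hormone, at 200 pg/mL for 6 h. The cultures of each group are called biological replicates of 1 line in 1 batch, so the p-values measure the spread between cultures of this line.

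Libraries held 34908867 to 37418318 counts. Control replicate 1 stood apart in ribosomal RNA precursor, with 0.995% of its counts on Rn45s against 0.139 to 0.245% in the other libraries. Between 16674 and 16739 genes had a count in AVP and between 16166 and 16403 in control libraries, and the nuclear RNA Malat1 was at 1499 to 1724 in AVP and 499 to 1106 in control per 1000000 counts. The part of these differences in the results below was not tested. Levels below are in counts per 1000000 library counts after TMM scaling (CPM). The labelled cell type showed in neuronal genes such as Snap25 (means of 116 and 121 CPM). The 10 neuron and neuroendocrine markers summed to 2695 to 2874 CPM in control and 2471 to 2570 CPM in AVP libraries, and of 9 tested, 4 rose and 2 fell. Gnrh1 had only 11 to 26 counts per library. The T, B and NK cell list of 8 genes summed to 1.85 to 2.28 CPM in control and 3.19 to 3.26 in AVP libraries, with Cd3e, Nkg7 and Ncr1 at 0 throughout. Of 10 microglia and macrophage markers, P2ry12 was at 0 in all libraries and Ptprc had 2 counts in all. The microglia and macrophage sum still went from between 13.9 and 18 to between 118 and 132 CPM, most of it from Tmem119, which had a mean of 11.7 in control and 118 in AVP libraries. Summed markers of oligodendrocytes went from between 68.1 and 75.2 CPM to between 31.5 and 33.1 CPM, with Mog, Mag and Olig2 at 0, and those of fibroblasts from between 20.3 and 24.3 CPM to between 8.48 and 9.84 CPM. The endothelial sum was 305 to 334 CPM in control and 246 to 277 CPM in AVP libraries, and the astrocyte sum 1.18 to 1.3 and 1.82 to 2.38 CPM. The part of these marker changes in the results was not tested, and in bulk RNA fewer cells of a kind and less RNA per cell cannot be told apart.

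Of the 43 members, 35 had enough counts to be tested, 17 of these rose with AVP, 5 fell and 13 did not pass the threshold. A call means an adjusted p under 0.05 in edgeR's quasi-likelihood test over all 14163 tested genes. Most of the transcriptome met this rule, since 28.7% of all tested genes were called higher and 28.8% lower, together 57.5%. Among the tested members the shares were 48.6% higher and 14.3% lower, together 62.9%. The median log2 fold change was 0.18 among the tested members and 0.01 among all tested genes. Groups did not overlap for 23 of the 35 tested members, against 63.4% of all tested genes. The filter on low counts let Gbp3, Ifih1, Mx2 and Parp14 in through the AVP libraries alone and Ifit3 through the control libraries alone. The filter favours a difference in such members, toward the group they passed through, so these counts are a description and carry no support for a direction. By size, 5 members rose by at least 2-fold and 1 fell by as much (Isg20), where 5.2% and 4.79% of all tested genes did. Of the 5, Irf7 and Usp18 passed the filter in both groups, and Gbp3, Mx2 and Ifih1 only through the AVP libraries.

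**Figure D1:**
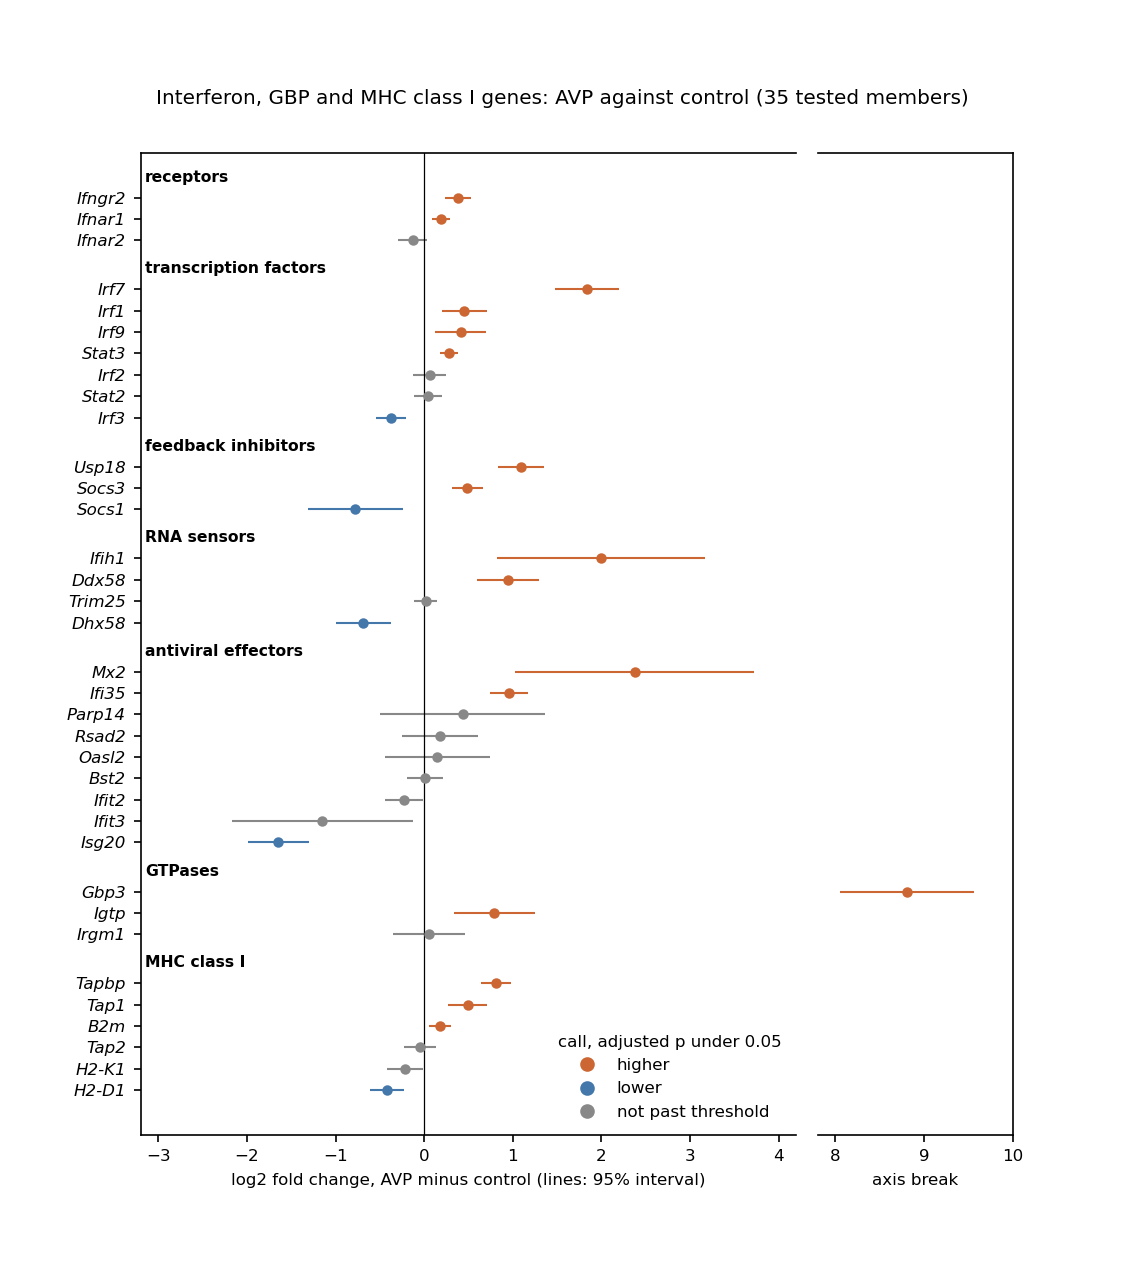
Log2 fold change (AVP minus control, with 95% intervals from the SE, n = 3 per group) of the 35 tested members by role, with orange for higher, blue for lower and grey for not past the threshold. Every role held members on more than 1 side of the test, and Gbp3 at 8.81 lies beyond the axis break, which keeps the same scale.

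**Figure D2:**
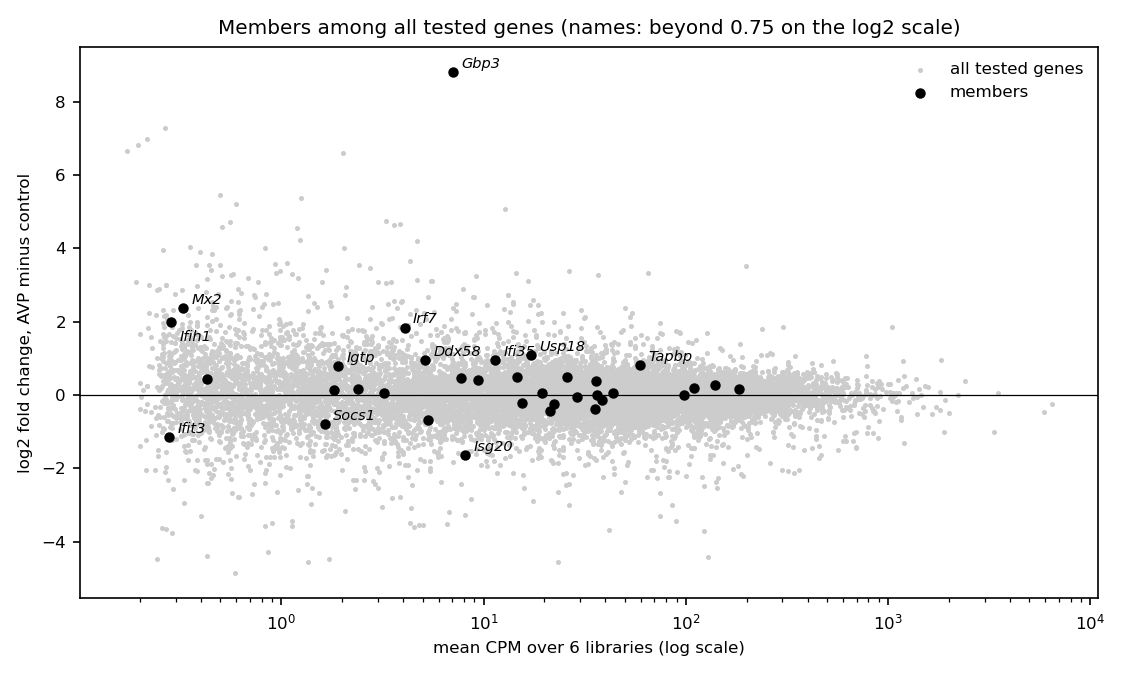
Log2 fold change against mean CPM (log axis) for all 14163 tested genes in grey and the 35 tested members in black. Most members lie within the grey cloud, and Gbp3 lies above it.

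Promoter letters of the members were set beside those of all genes. The interferon-stimulated response element (ISRE), bound by IRF factors, was searched as GAAA, any 2 bases and GAAA on both strands of RefSeq promoter windows (GRCm38.p6, 250 bases before to 50 after each start). Windows were matched for 37 members, and Parp14, Tap2, Mx1, Mx2, Usp18 and Dhx58 had none in the table. At least 1 match lay in a window of 16 members (43.2%), against 3.99% of all 27025 genes with a window. The GAS letters TTCNNNGAA of STAT dimers matched in 11 members (29.7% against 9.55%), and the NF-kB letters (GGG, any 3 bases and TTCC) in 8 (21.6% against 6.31%). Matches of 1 motif can overlap each other, as do matches of different motifs. Of the members with a window, an ISRE match was held by 5 of 15 that rose, 1 of 4 that fell, 6 of 11 that were tested and not called, and 4 of 7 that were not tested. A match is a description of letters and not a bound site.

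The 160 bases before the RefSeq start are shown for 8 members with an ISRE match there, to set side by side genes with like letters and unlike readouts. Capitals mark the ISRE matches, and each sequence runs 5′ to 3′ on the gene's strand. The RefSeq start and the GENCODE gene start disagree for Irgm1, Gbp3, Gbp2, Ifit1 and Bst2. The stretch of Irgm1 lies inside its GENCODE gene. The ends of the stretches of Gbp3, Gbp2 and Ifit1 do too, and for Gbp2 this part holds the ISRE match. That of Bst2 ends short of its GENCODE start.
Gbp3, chr3:142559884-142560043, plus strand: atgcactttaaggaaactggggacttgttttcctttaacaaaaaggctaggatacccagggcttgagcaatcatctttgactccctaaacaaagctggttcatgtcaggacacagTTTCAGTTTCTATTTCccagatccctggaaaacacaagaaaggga
Gbp2, chr3:142620503-142620662, plus strand: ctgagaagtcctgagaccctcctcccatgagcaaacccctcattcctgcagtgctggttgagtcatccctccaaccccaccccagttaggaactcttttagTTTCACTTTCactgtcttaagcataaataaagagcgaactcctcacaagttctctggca
Igtp, chr11:58199396-58199555, plus strand: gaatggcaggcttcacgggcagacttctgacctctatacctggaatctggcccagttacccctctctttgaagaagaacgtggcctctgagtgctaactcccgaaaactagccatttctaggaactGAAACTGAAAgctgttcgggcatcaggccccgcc
Ifit1, chr19:34640729-34640888, plus strand: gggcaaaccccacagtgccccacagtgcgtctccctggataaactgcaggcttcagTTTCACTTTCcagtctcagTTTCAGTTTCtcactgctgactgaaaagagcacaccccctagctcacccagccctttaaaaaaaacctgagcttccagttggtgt
Isg15, chr4:156200819-156200978, minus strand: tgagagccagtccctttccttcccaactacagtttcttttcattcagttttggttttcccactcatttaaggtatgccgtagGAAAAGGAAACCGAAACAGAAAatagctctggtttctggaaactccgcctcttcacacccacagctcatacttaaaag
Irgm1, chr11:48871421-48871580, minus strand: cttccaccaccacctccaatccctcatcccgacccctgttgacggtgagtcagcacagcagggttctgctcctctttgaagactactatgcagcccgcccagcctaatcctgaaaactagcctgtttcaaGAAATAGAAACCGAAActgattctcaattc
Bst2, chr8:71537473-71537632, minus strand: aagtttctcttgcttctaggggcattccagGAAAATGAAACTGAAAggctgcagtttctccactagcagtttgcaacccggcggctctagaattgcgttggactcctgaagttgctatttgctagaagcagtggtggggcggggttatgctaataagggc
Socs1, chr16:10785537-10785696, minus strand: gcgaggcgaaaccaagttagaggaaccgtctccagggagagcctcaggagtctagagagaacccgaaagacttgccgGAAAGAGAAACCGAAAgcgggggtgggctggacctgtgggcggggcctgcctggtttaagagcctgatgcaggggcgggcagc
Gbp3 and Igtp rose with AVP and Gbp2 and Ifit1 had more counts there, Isg15 stayed near the counting floor, Irgm1 and Bst2 did not pass the threshold, and Socs1 fell. Isg15 held the longest run, 3 overlapping matches over 22 bases.

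Interferon genes themselves were close to absent. Of 10 ligand genes looked for (Ifnb1, Ifng, 4 Ifna genes, Ifnk, Ifne, Ifnl2 and Ifnl3), 8 had 0 counts in all 6 libraries. Ifnb1 had 1 count in control replicate 1 and Ifnk 1 count in AVP replicate 2. Over 3 libraries, a count of 0 allows up to 0.0282 CPM in control and 0.0271 in AVP cultures.

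Receptor genes had counts, with 1 exception. Ifnar1, a chain of the type I interferon receptor, was at 103, 102 and 105 CPM in control replicates 1 to 3 and at 114, 119 and 119 in AVP replicates 1 to 3. All 3 AVP values lay above the control values, a small rise (log2 fold change 0.19, SE 0.05, edgeR adjusted p = 0.00647). Ifnar2, the partner chain, was at 43, 41.9 and 35.9 in control and 35, 37.7 and 37.5 in AVP libraries, so the groups overlapped (log2 fold change -0.13, SE 0.08, adjusted p = 0.183). It was called lower without control replicate 3 (adjusted p = 0.0246). Of its 50-base words, 8.87% lie in the overlapping gene model Gm21970. Ifngr2, the signalling chain of the interferon gamma receptor, rose from 31.1 ± 1.36 to 40.5 ± 2.00 CPM (SD, n = 3; adjusted p = 0.000464). Ifngr1, the ligand-binding chain of the same receptor, had 0 counts in all 6 libraries. No 50-base word of its transcript was shared with another gene's transcripts in GENCODE M21. Aligner and counting annotation are not given, so 0 counts need not mean that Ifngr1 was silent. Ifnar2, Ifnar1 and Ifngr2 are neighbours on chromosome 16 (GRCm38, 91372783 to 91565623).

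The transcription factors moved in both directions, and Irf7 led. Irf7, which amplifies interferon responses (chromosome 7, 141262706 to 141266481, minus strand), was at 1.44, 2.03 and 1.87 CPM in control and 6.80, 5.84 and 6.47 in AVP libraries. All AVP values lay well above the control values (3.58-fold, log2 fold change 1.84, SE 0.19, adjusted p = 6.14e-07). Irf1, an early factor downstream of interferon gamma and NF-kB, rose from 6.51 ± 0.216 to 8.93 ± 0.834 (adjusted p = 0.0071), and Stat3, the factor of the interleukin-6 family, from 126 ± 4.19 to 154 ± 4.11 (adjusted p = 0.000262). Irf3, which responds directly to RNA and DNA sensing, fell. Its values were 36.9, 41.1 and 42.9 in control and 32.8, 32.0 and 28.5 in AVP libraries, without overlap (log2 fold change -0.37, SE 0.08, adjusted p = 0.00129).

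Stat2, a factor of type I interferon signalling, did not pass the threshold, at 43 ± 4.26 in control and 44.4 ± 1.55 in AVP libraries (log2 fold change 0.05, SE 0.08, adjusted p = 0.639). Irf9, a DNA-binding partner of STAT2, was called higher, at 7.30, 6.83 and 9.98 against 9.68, 11.2 and 11.3. Control replicate 3 overlapped the AVP values, and the call (adjusted p = 0.0239) was lost without control replicate 1 (0.0653) or 2 (0.124) and without AVP replicate 2 (0.075) or 3 (0.074). Irf2, an antagonist of Irf1, was at 19.1 ± 1.51 and 19.9 ± 0.995 and did not pass. Irf5, a factor of myeloid cells, had 1 count in control libraries together and 6 in AVP libraries together, and the summed counts gave a ratio of 5.77 (95% counting interval 0.70 to 265).

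The 3 feedback inhibitors were all called, with Socs1 opposite to the others. Usp18, which removes ISG15 from proteins and blocks type I receptor signalling (chromosome 6, 121245906 to 121270917, plus strand), was at 10.7, 13.2 and 8.97 CPM in control and 25.4, 21 and 23.8 in AVP libraries. The groups were far apart (2.13-fold, log2 fold change 1.09, SE 0.13, adjusted p = 5.35e-06). Socs3, which restrains receptors that use STAT3, rose from 21.5 ± 1.59 to 30.1 ± 1.71 (adjusted p = 0.000211). Socs1, the inhibitor of JAK kinases at interferon receptors, was at 2.54, 2.28 and 1.41 in control and 1.06, 1.27 and 1.31 in AVP libraries. The groups were separated only narrowly, by control replicate 3 (log2 fold change -0.78, SE 0.27, adjusted p = 0.0237). The call for Socs1 was lost without control replicate 1 (0.094) or 2 (0.0812) and without AVP replicate 1 (0.08) or 2 (0.0521).

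RNA sensors also split. Ddx58, which encodes RIG-I, was at 3.23, 4.30 and 2.97 CPM in control and 7.56, 6.92 and 5.78 in AVP libraries, all AVP values being higher (1.93-fold, log2 fold change 0.95, SE 0.18, adjusted p = 0.000294). Ifih1, which encodes MDA5, had 6, 4 and 2 raw counts in control and 15, 26 and 10 in AVP libraries. The ratio of its summed counts was 4.09 (95% counting interval 2.15 to 8.42), and its call (adjusted p = 0.00982) was lost without AVP replicate 2 (0.0768). Ifih1 also passed the filter through the AVP libraries alone, so the call is no support. Dhx58, which encodes LGP2, a regulator of both sensors without signalling domains of its own, fell from 6.57 ± 0.195 to 4.09 ± 0.603 (log2 fold change -0.68, SE 0.16, adjusted p = 0.00151). Trim25, a ubiquitin ligase that acts on RIG-I, was at 97.2 ± 4.32 and 98.3 ± 7.61 (log2 fold change 0.02, SE 0.06, adjusted p = 0.847).

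**Figure D3:**
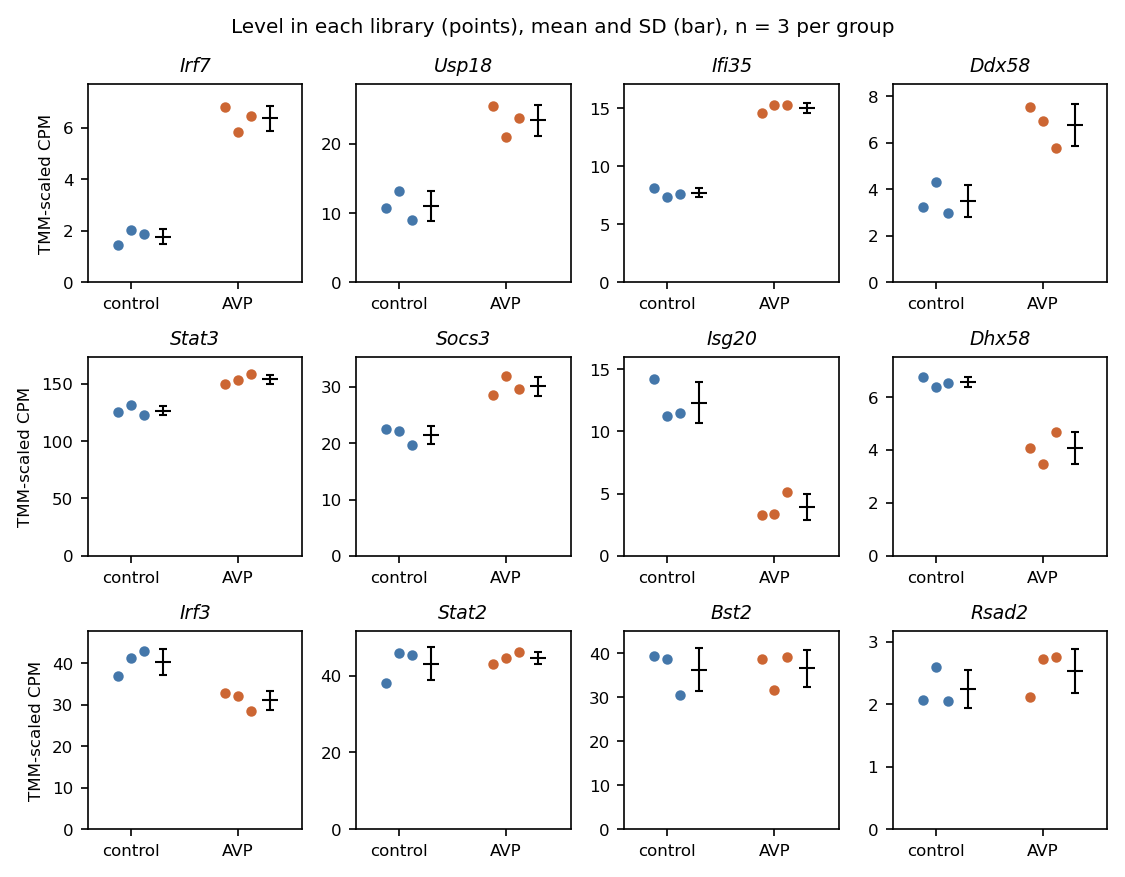
TMM-scaled CPM in each library (points) with mean and SD (bars, n = 3) for 12 regulators, sensors and effectors. Irf7, Usp18, Ifi35, Ddx58, Stat3 and Socs3 were higher in all AVP libraries, Isg20, Dhx58 and Irf3 lower, and Stat2, Bst2 and Rsad2 overlapped.

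Among 13 antiviral effectors, 9 were tested, 2 rose, 1 fell and 6 did not pass the threshold. Isg20, an RNA exonuclease (chromosome 7, 78913424 to 78920396, plus strand), was at 14.2, 11.2 and 11.5 CPM in control and 3.26, 3.38 and 5.17 in AVP libraries. Every AVP value lay below the control values by more than the spread in either group (3.13-fold lower, log2 fold change -1.65, SE 0.17, adjusted p = 1.45e-06). Ifi35, a leucine zipper protein induced by interferon (chromosome 11, 101448407 to 101458698, plus strand), was at 8.16, 7.37 and 7.64 in control and 14.5, 15.2 and 15.2 in AVP libraries. The groups were tight and well separated (1.94-fold, log2 fold change 0.96, SE 0.11, adjusted p = 2.11e-06).

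Of the other effectors, Isg15, the ubiquitin-like modifier, had 4, 4 and 2 raw counts in control and 0, 0 and 4 in AVP libraries, and the summed counts gave a ratio of 0.385 (95% counting interval 0.0881 to 1.33). Rsad2, which encodes viperin, was at 2.24 ± 0.305 and 2.53 ± 0.355 CPM (log2 fold change 0.18, SE 0.22, adjusted p = 0.505). Bst2, which encodes tetherin, a protein that holds budding virus at the membrane, was at 36.3 ± 4.94 and 36.6 ± 4.16 (log2 fold change 0.01, SE 0.11, adjusted p = 0.94). Oasl2, of the oligoadenylate synthetase family, was at 1.72 ± 0.621 and 1.91 ± 0.553 (adjusted p = 0.704), and Parp14, an ADP-ribosyltransferase, at 0.364 ± 0.15 and 0.494 ± 0.19 (adjusted p = 0.452). Xaf1, a proapoptotic protein gene, had 6 counts over the control and 9 over the AVP libraries.

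The Ifit genes, neighbours on chromosome 19 whose products bind foreign RNA, differed among themselves. Ifit1 had 2, 2 and 0 raw counts in control and 20, 7 and 8 in AVP libraries, which gave a ratio of 8.42 (95% counting interval 3.01 to 32.6). It was too low for the filter, and without a filter its adjusted p was 0.0104. Ifit1 shares 7.13% of its 50-base words with Ifit1bl1 and Ifit1bl2. Ifit2 was at 24 ± 1.95 and 20.4 ± 3.17 CPM (log2 fold change -0.23, SE 0.11, adjusted p = 0.0871) and was called lower without control replicate 3 (0.0296) or AVP replicate 1 (0.0119). Ifit3 had 16, 13 and 12 raw counts in control and 4, 7 and 8 in AVP libraries, without overlap and not past the threshold (log2 fold change -1.15, SE 0.52, adjusted p = 0.0708). Of the 50-base words of the Ifit3 transcript, 51.2% also occur in Ifit3b, so counts of these copies are uncertain.

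Of the Mx genes, dynamin-like antiviral GTPases that are defective in many laboratory mouse strains, Mx2 had 0, 7 and 4 raw counts in control and 32, 16 and 13 in AVP libraries. The ratio of its summed counts was 5.33 (95% counting interval 2.78 to 11.2). Its call (log2 fold change 2.38, SE 0.69, adjusted p = 0.008) was lost without AVP replicate 1 (0.0586), and the log2 fold change was 3.21 without control replicate 2. Since Mx2 passed the filter through the AVP libraries alone, the call is no support. Mx1, its neighbour on chromosome 16, had 7, 18 and 4 counts in control and 15, 1 and 4 in AVP libraries, so its groups overlapped. Part of each Mx transcript (4.77% of the words of Mx1 and 6.71% of those of Mx2) is shared with the other, so their counts are uncertain.

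The GBP and immunity-related GTPases, which attack membranes around intracellular microbes, held the widest range of all roles. Gbp3 (chromosome 3, 142560026 to 142573209, plus strand) had 0, 3 and 0 raw counts in control and 556, 613 and 403 in AVP libraries. Its AVP level was 15.1, 16.2 and 11.2 CPM, and the ratio of TMM-scaled sums was 504 (95% counting interval 172 to 2447, adjusted p = 1.37e-10). Since Gbp3 passed the filter through the AVP libraries alone, its call is no support. All 3 control counts came from control replicate 2. Without that library the control counts were 0, and the fitted log2 fold change, which then depends on the prior count, went from 8.81 to 12.0. Only 4.79% of the 50-base words of the Gbp3 transcript were shared, all of them with Gbp7 and some with Gbp11, and both of those genes had at most 2 counts in any library.

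Gbp2, on the same cluster, had 0 counts in all control libraries and 13, 6 and 6 in AVP libraries. Against the floor of 3 counts over the control group it was at least 8.02-fold higher, and allowing for counting error in its 25 AVP counts the lower 95% limit of its ratio was 6.05. Without a filter its adjusted p was 0.00178. Gbp7 had 1 count in control replicate 2 and 0 elsewhere. Other genes of the cluster that are not members, chosen here after their values were seen, were 0 in control and low in AVP libraries. Gbp5 had 10, 16 and 2 counts there and Gbp2b 6, 9 and 4. On chromosome 5, Gbp6 had 0, 5 and 0 counts in control and 26, 36 and 21 in AVP libraries, while Gbp10 was at 0 throughout.

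The immunity-related GTPase members were low but had counts in every library. Raw counts of Igtp were 43 to 54 in control and 83 to 97 in AVP libraries, and those of Irgm1 106 to 116 and 100 to 151. Igtp, also known as Irgm3, was at 1.19, 1.52 and 1.47 CPM in control and 2.64, 2.19 and 2.42 in AVP libraries, a separated rise (1.73-fold, log2 fold change 0.79, SE 0.23, adjusted p = 0.00833). Irgm1, a regulator of the family, was at 3.17 ± 0.171 and 3.29 ± 0.791 (log2 fold change 0.05, SE 0.21, adjusted p = 0.841). The Igtp transcript shares 12.3% of its 50-base words with Irgm2, which was not past the threshold (3.14 and 2.27 CPM, adjusted p = 0.118).

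**Figure D4:**
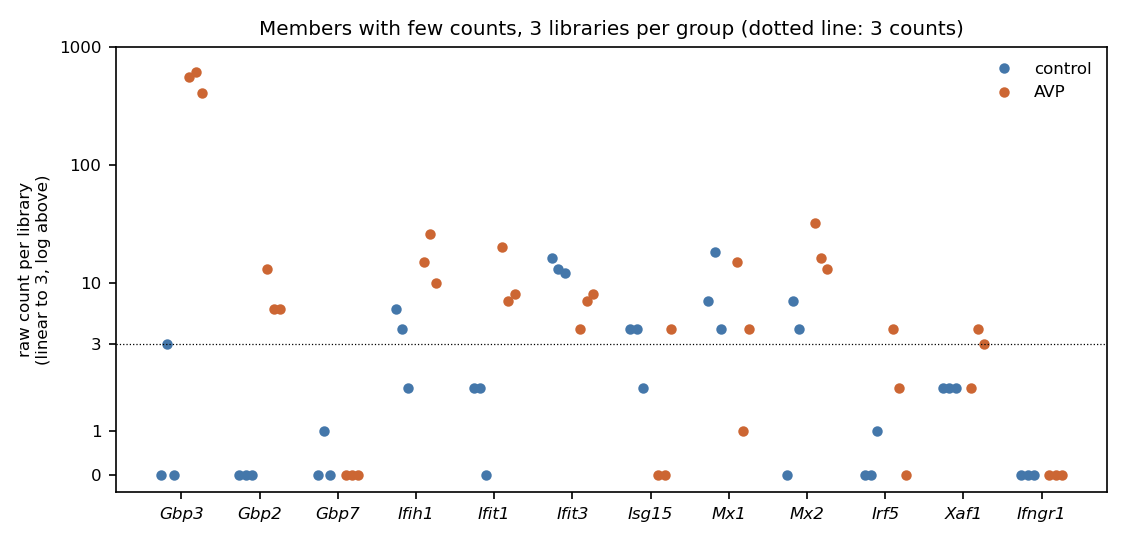
Raw counts per library (linear to 3, log above) for 12 members with few counts, control in blue and AVP in orange, with a dotted line at 3 counts. Gbp3 goes from at most 3 to at least 403 counts, Gbp2, Ifit1, Ifih1 and Mx2 are higher in all AVP libraries, Ifit3 is lower, and Ifngr1 is at 0 throughout.

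Among the MHC class I members, Tapbp, Tap1 and B2m rose, and the heavy chain genes H2-D1 and H2-K1 did not. Of class I genes outside the members, chosen here after their calls were seen, H2-T24 was called higher and H2-T23 and H2-Q4 were not. Tapbp, which encodes tapasin, the protein that bridges class I molecules to the peptide transporter (chromosome 17, 33915899 to 33929292, plus strand), was at 49.7, 41.7 and 38.1 CPM in control and 80.5, 75.1 and 72.1 in AVP libraries. The AVP values were all far above the control values (1.76-fold, log2 fold change 0.81, SE 0.09, adjusted p = 1.73e-06). Tap1, a subunit of the transporter, rose from 12.1 ± 1.56 to 17.0 ± 1.22 (log2 fold change 0.49, SE 0.11, adjusted p = 0.00178). Tap2, the other subunit, was at 29.5 ± 2.83 and 28.6 ± 2.32 (log2 fold change -0.05, SE 0.09, adjusted p = 0.698).

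The heavy chain members H2-D1 and H2-K1 lay on the other side of 0. H2-D1 was at 26.9, 25.2 and 21 CPM in control and 18.7, 17.7 and 18.3 in AVP libraries, without overlap, and fell (log2 fold change -0.42, SE 0.10, adjusted p = 0.00217). H2-K1 was at 17.0, 16.9 and 16 against 13.4, 13.7 and 15.9, so the groups did not overlap and AVP replicate 3 lay just under the lowest control value. It did not pass the threshold (log2 fold change -0.21, SE 0.10, adjusted p = 0.085), and was called lower without AVP replicate 3 (0.0364). These genes differ between mouse strains, and 14.3% of the words of H2-D1 and 8.79% of those of H2-K1 occur in other class I genes, so their counts are uncertain. B2m, the light chain, was at 182, 175 and 157 in control and 188, 186 and 208 in AVP libraries, a small rise (log2 fold change 0.18, SE 0.06, adjusted p = 0.0245) whose adjusted p was 0.153 when control replicate 3 and 0.118 when AVP replicate 3 was left out. Per kilobase of exon (GENCODE M21), the level of B2m in control was the highest of the tested members at 199 CPM per kilobase, followed by Bst2 at 40.2, against 9.45 for H2-D1 and 5.66 for H2-K1.

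**Figure D5:**
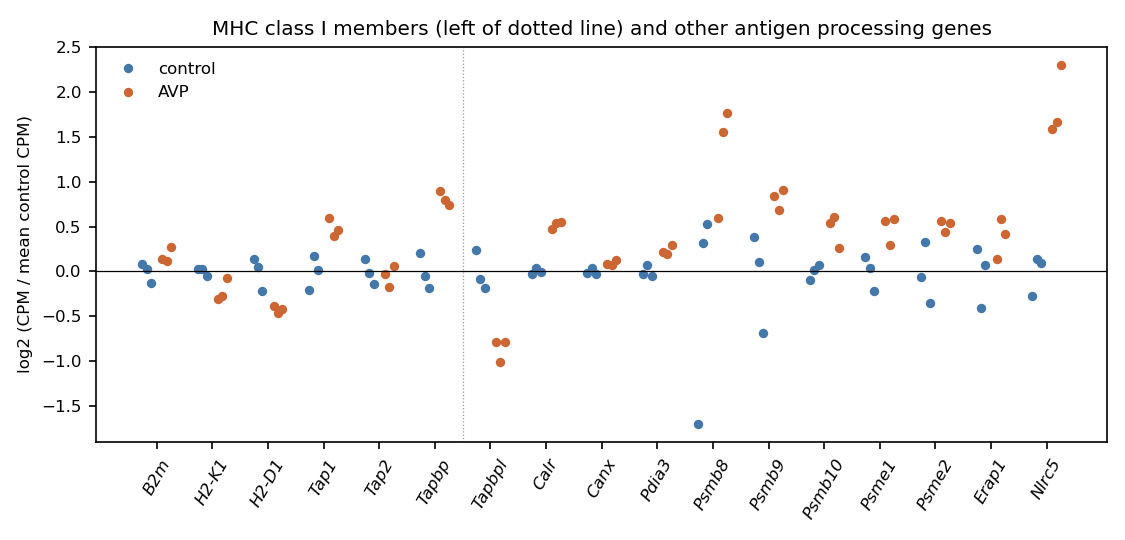
Log2 ratio of each library to the mean control level for the 6 MHC class I members (left of the dotted line) and 11 other antigen processing genes, control in blue and AVP in orange. Tapbp and Tap1 lie above 0 and H2-D1 and H2-K1 below it in all AVP libraries.

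Other genes of antigen processing and class I were listed together with some outside both. Among the latter, named here after their calls were seen, were Cd274 (higher) and H2-Ke6 (lower). Of this mixed list, 13 of 18 tested genes were called, 11 higher and 2 lower, with a median log2 fold change of 0.35. Those shares were 61.1% and 11.1%, against 28.7% and 28.8% of all tested genes, whose median was 0.01. Calr, a chaperone of class I assembly that also folds other glycoproteins, rose by 0.52 on the log2 scale (adjusted p = 2.4e-07), and the peptide-trimming aminopeptidase gene Lnpep by 1.03 (adjusted p = 6.5e-07). Nlrc5, the transactivator of class I genes, had 13, 17 and 16 counts in control and 48, 52 and 77 in AVP libraries (log2 fold change 1.88, adjusted p = 0.000234). Tapbpl, a tapasin relative, fell from 17.8 ± 2.83 to 9.81 ± 0.854 CPM (adjusted p = 2.72e-05). Of 8 MHC class II genes, 3 were tested. Cd74, the invariant chain, rose from 5.09 ± 0.402 to 12.9 ± 1.59 CPM (adjusted p = 5.47e-07). H2-Eb1 had 0 counts in control and 12, 14 and 17 in AVP libraries, and since it passed the filter through the AVP libraries alone, its call is no support.

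Of 26 tested JAK, STAT and regulator genes, 14 rose and 6 fell (53.8% and 23.1%, where 28.7% and 28.8% of all tested genes were called higher and lower). Jak1, a kinase shared by interferon receptors, rose from 224 ± 5.62 to 304 ± 14.0 CPM (adjusted p = 3.02e-06). Pias3, an inhibitor of STAT3, rose by 0.62 on the log2 scale (adjusted p = 8.44e-07), whereas Pias4 fell by 0.51 and Socs2 by 0.49 (adjusted p = 4.68e-06 and 5.12e-06). Of 12 tested genes of nucleic acid sensing, 8 rose and 1 fell (66.7% and 8.33%, against the same 28.7% and 28.8%). The kinase genes Ikbke and Tbk1 rose by 1.01 and 0.41 on the log2 scale, the DNA sensing adaptor Tmem173, known as STING, by 0.47 and the adaptor Traf3 by 0.53 (adjusted p = 0.000337 or lower in each).

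Of 46 other interferon-stimulated genes looked for, 31 were tested, 16 rose and 6 fell, with a median log2 fold change of 0.39. The shares were 51.6% and 19.4%, where 28.7% and 28.8% of all tested genes were called and the median was 0.01. Of the 16, 4 (Oasl1, Trim21, Rtp4 and Uba7) passed the filter through the AVP libraries alone, so their calls are no support. By size, 9 rose and 1 fell by at least 2-fold, a count that can include those 4, where 5.2% and 4.79% of all tested genes did. The median log2 fold change was 1.11 among genes that rose and -0.46 among genes that fell. Among the 4 with the smallest p, only Cxcl10, a chemokine gene, rose, from 12, 16 and 20 raw counts to 234, 189 and 137 (adjusted p = 5.96e-08). The other 3 fell. Tor3a, an interferon-responsive ATPase gene, fell from 35.1 ± 2.98 to 12.4 ± 0.924 CPM (adjusted p = 3.39e-09). The antiviral zinc finger gene Zc3hav1 fell by 0.57 and the RNA editing enzyme gene Adar by 0.48 on the log2 scale (adjusted p = 1.94e-06 and 4.47e-06). Of 14 other GBP and immunity-related GTPase genes, 3 were tested. Iigp1 rose (adjusted p = 0.0189), and Gbp6 was called higher but passed the filter through the AVP libraries alone, so its call is no support.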

How the data were processed

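Total RNA from 3 control and 3 AVP cultures was extracted with TRIzol for Illumina sequencing, per the labels' protocols. Each sample came with its own deposited table, in which the authors give unnormalized read counts by gene symbol. The genome builds listed per the submitters' processing notes are mm10 and GRCm38. Aligner, counter, annotation and strand setting: not given in the sources used here. For that reason counts of overlapping genes and close copies are uncertain. A spreadsheet had turned 27 gene symbols into dates, and these rows were kept unnamed.

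The whole table was fitted with edgeR 4.0.16 in R 4.3.3 (filterByExpr with minimum count 10, TMM factors, robust quasi-likelihood F test, no covariates), with Benjamini-Hochberg adjustment at 0.05 over 14163 genes. CPM values are TMM-scaled. A positive log2 fold change means higher in AVP, and its SE was taken from the F statistic as |log2 fold change| over the root of F. Ratios of summed counts have exact 95% binomial intervals conditional on the sum. Both these intervals and the 3-count floor describe counting error alone, because counts were summed over the libraries of a group. The spread between cultures is left out. PCR copies of a molecule are counted separately, which can make the intervals too narrow. No library was a duplicate of another in its group (chi-square over its degrees of freedom at least 7.46).

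The members and gene lists were chosen with earlier results of these data known. All 43 members are accounted for. Of each other pathway list, up to 4 called genes with the smallest p are named, and further genes are named as chosen after their values were seen or plotted. Gene positions, exon lengths and transcripts come from GENCODE M21 (GRCm38), and promoter windows from RefSeq (GRCm38.p6). Alternatives were RLE factors, library size alone, DESeq2 1.42.0, limma-voom (limma 3.58.1), leaving all genes unfiltered, requiring a mean of 50 counts, a fold change of 1.2 (glmTreat), an adjusted p under 0.01, the replicate number as a block and each library left out in turn. Tables and plots used Python 3.11.15, pandas 2.3.3, SciPy 1.17.1 and matplotlib 3.10.9.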

Additional observations from a re-analysis of the deposited data

How the results depend on the processing

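No tested member changed direction with a call under any of the 15 alternatives, and 21 of the 35 kept their side of the threshold in all that gave a value. The count of members called higher was 17 and of members called lower 5. Only the test against a fold change of 1.2 moved these counts by over 1.5 times, to 11 and 2 members, and over all genes to 2197 higher and 2332 lower. Leaving out 1 library at a time gave 15 to 16 members higher and 4 to 7 lower, and 3525 to 4053 genes higher and 3592 to 4166 lower. DESeq2 and the fit with no filter each called 19 members higher, adding Gbp2 and Ifit1, which the main filter leaves out. With the replicate number as a block, 17 members were called higher and 6 lower, the added one being Ifit2 (adjusted p = 0.0479). Deviations of same-numbered control and AVP libraries correlated at -0.0452 to 0.0787, so they had little deviation in common. These correlations cannot tell whether same-numbered cultures were handled as pairs. The depth limits the 8 untested members, for which a ratio has a wide counting interval.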
